A study of Mus musculus with 8 samples.

Results

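Pdxdc1, Ctsc, Prdx2, Rpp14 and Rgs5 are 5 mouse genes that the Affymetrix MG_U74Av2 array reads with more than 1 probe set, and whose probe sets disagreed on the difference between the strains C3H/HeJBir and C57BL/6J in the colon. All probe sets annotated to these 5 genes were taken, which gave 13 of the 12422 on the array. The genes were selected on the strain differences of these same arrays, so strain differences of the 13 probe sets are given as a description, with no test. Of the 13, 11 passed the filter on low values and 2 did not (161251_f_at of Ctsc and 100330_at of Prdx2), and 0 further probe sets carried a member gene together with another symbol.

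RNA of whole colon was hybridised to 8 arrays, each with a pool of 7 µg RNA from each of 4 or 5 mice. The groups were C3H/HeJBir mice carrying the targeted allele Il10tm1Cgn, C3H/HeJBir mice without it, C57BL/6J mice carrying Il10tm1Cgn and C57BL/6J mice without it, with 2 pools in each of the 4 groups, numbered sample 1 and sample 2. Carriers of the allele are called Il10-null here and the others wild type. The labels give an age of 4 weeks for C57BL/6J wild type sample 2, no age for the rest, and no sex. A pool is 1 value for several animals of a whole organ, so fewer cells of a type and less RNA per cell cannot be told apart, and the spread between pools is not the spread between animals. C3H/HeJBir is a strain known for its susceptibility to colitis, C57BL/6J is a common laboratory strain that is less susceptible, and interleukin 10, the product of Il10, is a cytokine that restrains inflammation.

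A probe set of this array is a group of short oligonucleotides that together report 1 intensity for 1 transcript sequence. Probe sets of the same gene can lie in different parts of its transcripts, and in the manufacturer's naming an f or g before the ending marks probes that are not unique to 1 sequence. Each probe set has its own brightness, so its level can be compared between pools, but the brightness of a pair of probe sets does not say which transcript was more abundant. Where the probes of these 13 probe sets lie in their transcripts was not analysed here. Probe set differences below are log2 of the intensity plus a pseudocount of 11.07, given with the SE of a limma fit over all arrays (n = 2 pools a group), and they understate the change of dim probe sets. A strain difference is C3H/HeJBir minus C57BL/6J, and an Il10 effect is Il10-null minus wild type.

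The arrays had medians of 50.1 to 62.2 and no detection calls were available. The array farthest from the others was that of C3H/HeJBir Il10-null sample 1, with a mean Spearman coefficient of 0.915, where the remaining pools had 0.931 to 0.945. The tissue label held for colon markers, whose 12 measured genes summed to 40171 to 43586 in C3H/HeJBir pools and 40695 to 45564 in C57BL/6J pools. Eif2s3y, a gene of the Y chromosome, read 242 and 318 in the sample 1 pools of C3H/HeJBir Il10-null and wild type, against 113 and 39.7 in those of C57BL/6J. In the sample 2 pools it read 391 and 411 in C3H/HeJBir and 263 and 256 in C57BL/6J, again Il10-null before wild type. Xist, which female cells transcribe, read 243 to 452 in the sample 1 pools of all groups and 2.84 to 12.9 in the sample 2 pools. The part of a different mix of sexes in the strain differences was not tested. The strains were hybridised side by side, since each sample 1 or sample 2 pool of C3H/HeJBir shared its hybridisation day with the C57BL/6J pool of the same genotype and number.

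**Figure D1:**
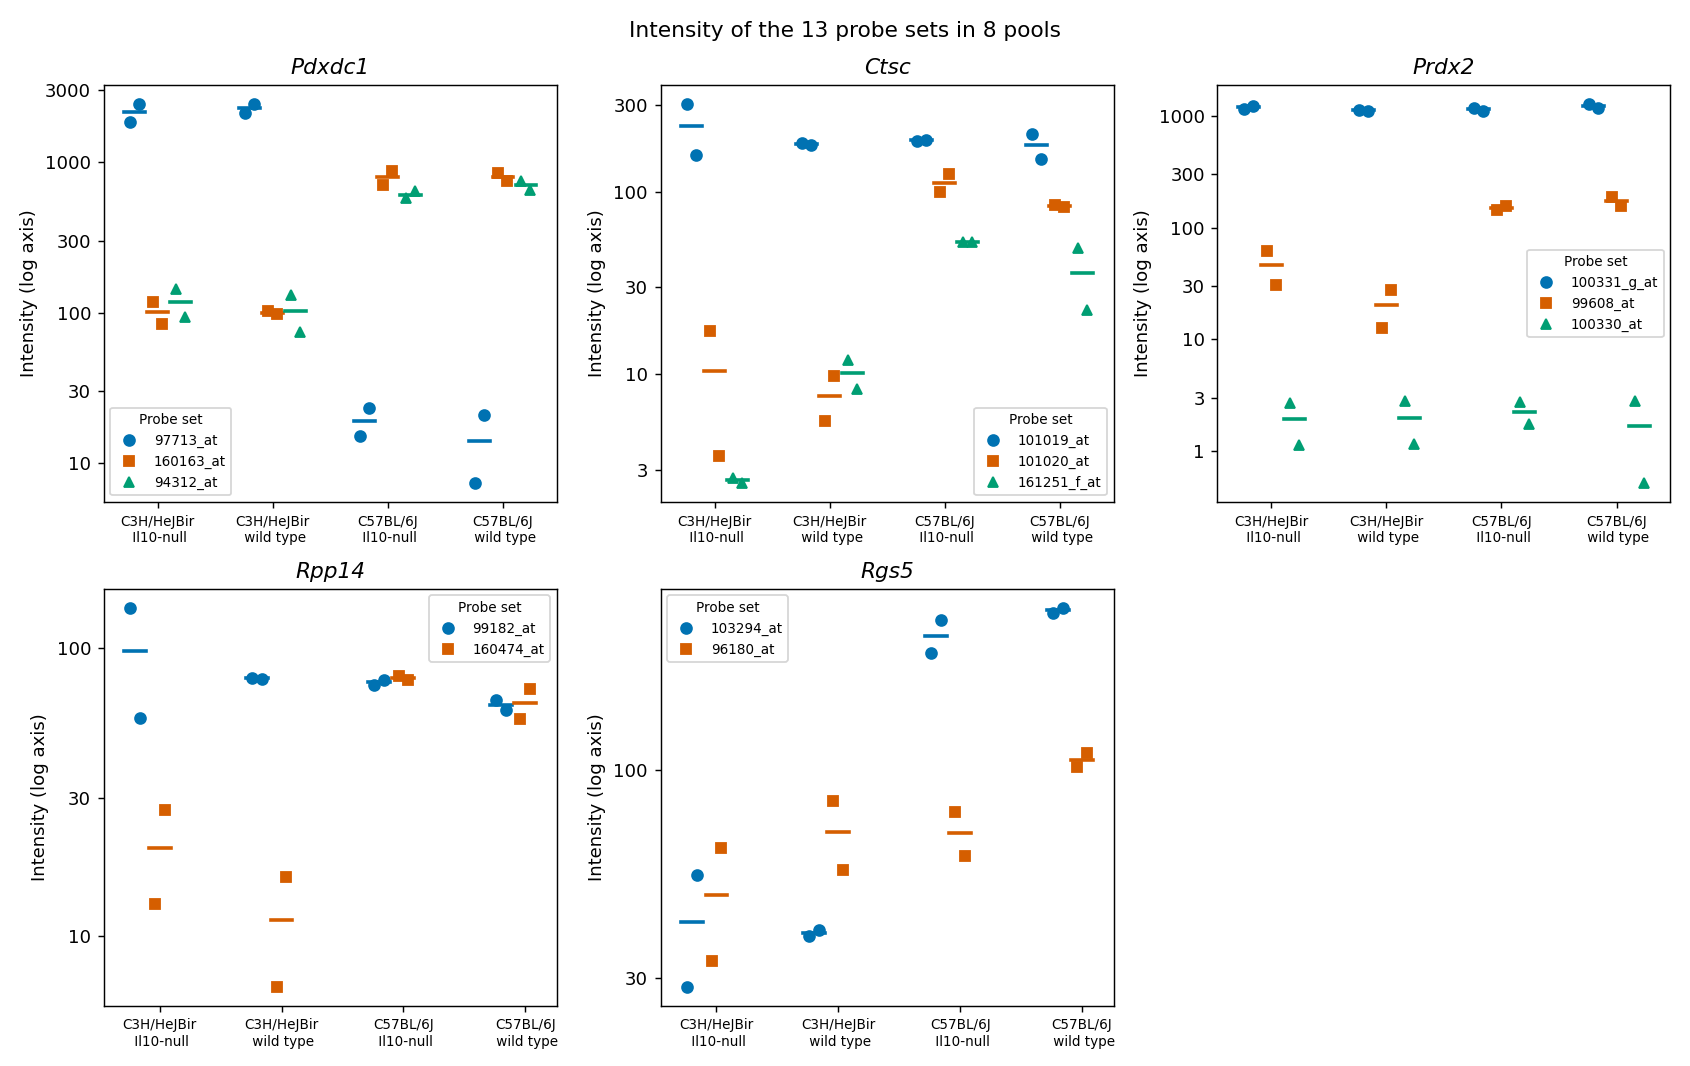
Intensity (log axis) of the 13 probe sets in the 4 groups, 1 panel for each gene and 1 colour and marker for each probe set. The left point of a pair is the sample 1 pool, the right point the sample 2 pool, and the bar is their mean. For Pdxdc1, 97713_at lies between 1854 and 2443 in C3H/HeJBir and between 7.38 and 23.3 in C57BL/6J, while the other probe sets are brighter in C57BL/6J.

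Pdxdc1, on chromosome 16, encodes a protein with the fold of decarboxylases that use pyridoxal phosphate, the active form of vitamin B6. Its probe sets disagreed in sign. The probe set 97713_at read 1854 and 2437 in C3H/HeJBir Il10-null pools and 2141 and 2443 in C3H/HeJBir wild type, against 15.2 and 23.3 in C57BL/6J Il10-null pools and 7.38 and 20.9 in C57BL/6J wild type. The mean was 112 times higher in C3H/HeJBir among Il10-null pools and 162 times higher among wild-type pools, with a log2 average strain difference of 6.36 ± 0.23. The C3H/HeJBir values stood at the 98.0 to 98.5 percentile of their arrays and the C57BL/6J values at the 12.1 to 32.8 percentile, where the size of a ratio depends on the low values.

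The other probe sets of Pdxdc1 went the other way. The probe set 160163_at read 119 and 83.9 in C3H/HeJBir Il10-null pools and 102 and 98.3 in C3H/HeJBir wild type, against 711 and 879 in C57BL/6J Il10-null pools and 845 and 753 in C57BL/6J wild type. The probe set 94312_at read 144 and 93.6 in C3H/HeJBir Il10-null pools and 130.4 and 74.3 in C3H/HeJBir wild type, against 576 and 644 in C57BL/6J Il10-null pools and 756 and 654 in C57BL/6J wild type. All 4 C3H/HeJBir pools lay below all 4 C57BL/6J pools in these probe sets, with average strain differences of -2.86 ± 0.18 and -2.49 ± 0.22. The probe set 94312_at had 75.6 to 128% of the intensity of 160163_at in C3H/HeJBir pools and 73.3 to 89.5% in C57BL/6J pools. The C3H/HeJBir ratios were 1.21 and 1.12 in Il10-null pools and 1.28 and 0.756 in wild type. In C3H/HeJBir 94312_at was thus brighter than 160163_at except in wild type sample 2, and in C57BL/6J it was dimmer. Which probe set of Pdxdc1 was brightest therefore depended on the strain. 97713_at was the brightest in each C3H/HeJBir pool, and in each C57BL/6J pool it was the dimmest and 160163_at the brightest.

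Ctsc, on chromosome 7, encodes cathepsin C, a lysosomal protease that activates the serine proteases of the granules of neutrophils, mast cells and cytotoxic lymphocytes. Its brightest probe set did not separate the strains and its dimmer ones did. The probe set 101019_at read 304 and 158 in C3H/HeJBir Il10-null pools and 185 and 182 in C3H/HeJBir wild type, against 190.3 and 193 in C57BL/6J Il10-null pools and 209 and 152 in C57BL/6J wild type. The ranges overlapped, and the average strain difference was 0.11 ± 0.23. It was -0.11 without the sample 1 C3H/HeJBir Il10-null pool, which gave the highest value.

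The probe set 101020_at of Ctsc read 17.3 and 3.57 in C3H/HeJBir Il10-null pools and 5.56 and 9.77 in C3H/HeJBir wild type, against 99.9 and 125 in C57BL/6J Il10-null pools and 84.8 and 82.5 in C57BL/6J wild type. The strain means were 9.04 ± 6.06 in C3H/HeJBir and 98.0 ± 19.4 in C57BL/6J (SD, n = 4 pools each), and the average strain difference was -2.47 ± 0.23. The probe set 161251_f_at, which did not pass the filter, read 2.71 and 2.54 in C3H/HeJBir Il10-null pools and 12.05 and 8.34 in C3H/HeJBir wild type, against 53.4 and 53.1 in C57BL/6J Il10-null pools and 49.6 and 22.6 in C57BL/6J wild type. Both dim probe sets of Ctsc had no overlap between the strains. The C3H/HeJBir values of 101020_at lay at the 9.02 to 24.8 percentile of their arrays and carry no background call, so a ratio taken from them is uncertain. In C3H/HeJBir pools 101020_at had 2.25 to 5.69% of the intensity of 101019_at, and in C57BL/6J pools 40.6 to 64.5%.

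Prdx2, on chromosome 8, encodes peroxiredoxin 2, a peroxidase that removes hydrogen peroxide with electrons from thioredoxin and is abundant in red blood cells. The bright probe set 100331_g_at read 1148 and 1233 in C3H/HeJBir Il10-null pools and 1127 and 1105 in C3H/HeJBir wild type, against 1185 and 1112 in C57BL/6J Il10-null pools and 1277 and 1172 in C57BL/6J wild type. The strains overlapped there, with an average difference of -0.04 ± 0.15.

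The probe set 99608_at of Prdx2 read 61.2 and 30.8 in C3H/HeJBir Il10-null pools and 12.8 and 27.9 in C3H/HeJBir wild type, against 143 and 155 in C57BL/6J Il10-null pools and 188 and 156 in C57BL/6J wild type. All C3H/HeJBir pools lay below all C57BL/6J pools, with an average difference of -2.06 ± 0.24. The difference was -1.54 ± 0.34 among Il10-null pools and -2.58 ± 0.34 among wild-type pools. The third probe set, 100330_at, read 1.15 to 2.83 in C3H/HeJBir pools and 0.52 to 2.82 in C57BL/6J pools, at or below the 3.87 percentile of each array, and it did not pass the filter. RefSeq lists 2 pseudogenes of Prdx2, on chromosomes 1 and 4, whose transcripts these probe sets may not tell from Prdx2, so the readings are uncertain for this gene.

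Rpp14, on chromosome 14, encodes a protein associated with RNase P, the enzyme that trims the leader of transfer RNA precursors. In the RefSeq table Htd2, the gene of a mitochondrial dehydratase of fatty acid synthesis, has the same start and end as Rpp14, and in humans both proteins are read from 1 transcript. The array has 0 probe sets named for Htd2, and the probe sets of Rpp14 may read RNA that encodes both proteins. The probe set 99182_at read 138 and 57.3 in C3H/HeJBir Il10-null pools and 79.0 and 78.3 in C3H/HeJBir wild type, against 74.6 and 77.4 in C57BL/6J Il10-null pools and 66.1 and 61.0 in C57BL/6J wild type. The strains overlapped, with an average difference of 0.24 ± 0.25. Without the sample 1 C3H/HeJBir Il10-null pool, which read highest, it was -0.04.

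The probe set 160474_at of Rpp14 read 12.9 and 27.3 in C3H/HeJBir Il10-null pools and 6.63 and 15.98 in C3H/HeJBir wild type, against 80.3 and 77.6 in C57BL/6J Il10-null pools and 56.8 and 72.4 in C57BL/6J wild type. The strains did not overlap, and the average difference was -1.68 ± 0.22. In C57BL/6J pools this probe set had 86.0 to 119% of the intensity of 99182_at, and in C3H/HeJBir pools 8.39 to 47.7%. In C57BL/6J the probe sets of Rpp14 were thus about equally bright, and in C3H/HeJBir they were not.

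Rgs5, on chromosome 1, encodes a regulator that speeds the shutdown of G protein signals and is a marker of pericytes, the contractile cells of small vessels. Here the brighter probe set, by its mean over the 8 arrays, showed the larger difference. The probe set 103294_at read 28.4 and 54.4 in C3H/HeJBir Il10-null pools and 38.1 and 39.7 in C3H/HeJBir wild type, against 198 and 239.5 in C57BL/6J Il10-null pools and 250.1 and 258 in C57BL/6J wild type. The strains did not overlap, with an average difference of -2.29 ± 0.20.

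The probe set 96180_at of Rgs5 read 33.0 and 63.9 in C3H/HeJBir Il10-null pools and 83.8 and 56.0 in C3H/HeJBir wild type, against 78.3 and 60.7 in C57BL/6J Il10-null pools and 102 and 111 in C57BL/6J wild type. Its ranges overlapped between the strains, and the average difference of -0.52 ± 0.22 had the same sign as that of 103294_at. The strain set the order of the probe sets, since 96180_at had 116 to 220% of the intensity of 103294_at in C3H/HeJBir pools and 25.3 to 43.1% in C57BL/6J pools.

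**Figure D2:**
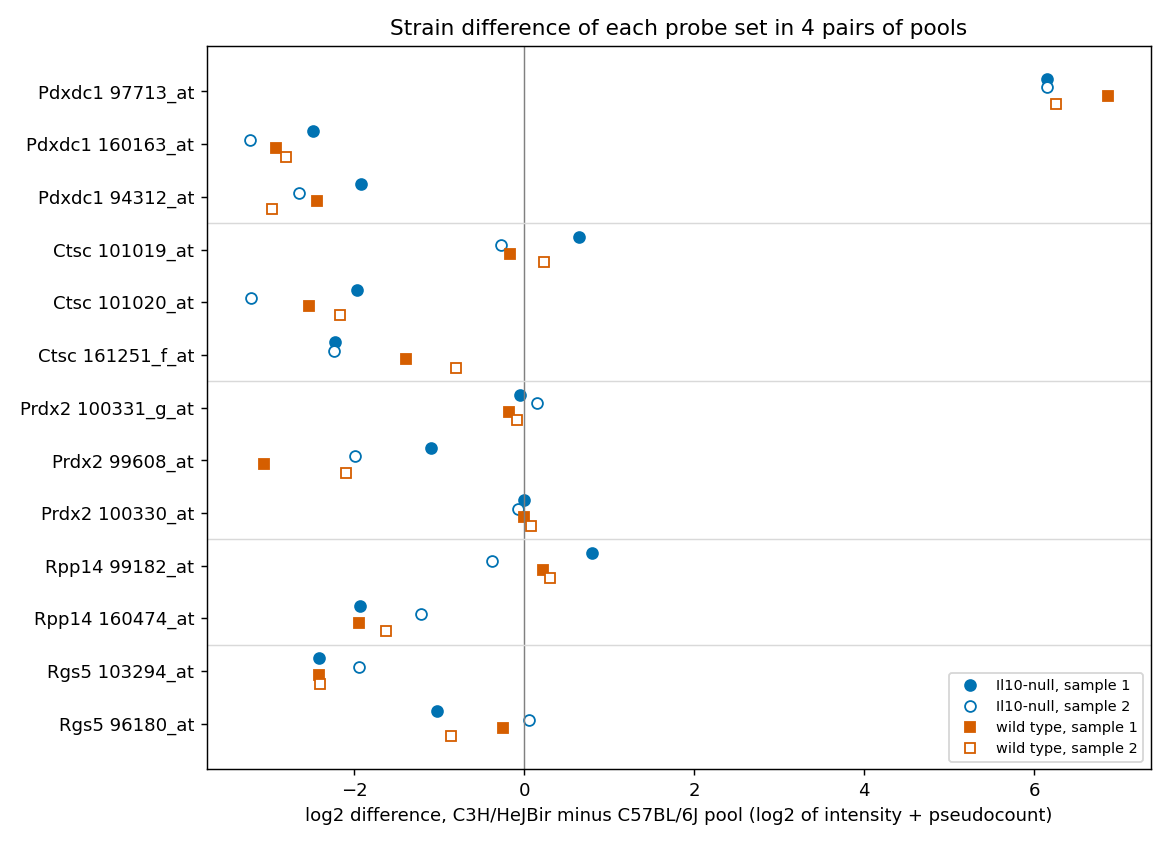
Log2 difference of each of the 13 probe sets between a C3H/HeJBir pool and the C57BL/6J pool of the same genotype and sample number, hybridised on the same day. Blue circles are Il10-null and orange squares wild-type pools, filled for sample 1 and open for sample 2. The points of 97713_at lie between 6.15 and 6.87 and those of 160163_at between -3.23 and -2.48, while the points of 101019_at and 99182_at fall on both sides of 0.

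The sign of the strain difference was the same in both genotypes for 10 of the 11 tested probe sets. The exception was 100331_g_at of Prdx2, at 0.05 ± 0.21 among Il10-null pools and -0.13 ± 0.21 among wild-type pools. The share of all tested probe sets with equal signs was not counted. The genes were chosen on these strain differences, so nothing is read from the 10 of 11. Over all 13 probe sets, 7 had every C3H/HeJBir pool below every C57BL/6J pool, 1 had every C3H/HeJBir pool above, and 5 overlapped. Among the 11 tested, 7 did not overlap between the strains, where 6.48% of all 7453 tested probe sets did not. Of these 7, 6 were lower in C3H/HeJBir (3.81% of all) and 1 was higher (2.67% of all). In the fit over all probe sets, counted here as a description and not as a test of these genes, 7 of the 11 had a limma adjusted p under 0.05 in the average strain difference (1.11% of all tested probe sets), 6 lower (0.698%) and 1 higher (0.416%). Among Il10-null pools it was 5 of 11 (0.295%), 4 lower (0.134%) and 1 higher (0.161%), and among wild-type pools 6 of 11 (0.403%), 5 lower (0.188%) and 1 higher (0.215%). The choice of the genes fixed these counts beforehand, and nothing is read from them against the shares of all probe sets. With 1 pool left out in turn they ran from 6 to 7 for the average, 1 to 4 among Il10-null pools and 1 to 6 among wild-type pools. The separated probe sets had the same sign in each of the 4 pairs of pools, as the lack of overlap requires.

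The disagreement itself was measured as the gap between the highest and the lowest average strain difference among the tested probe sets of a gene. The gap was 9.22 for Pdxdc1, 2.58 for Ctsc, 2.02 for Prdx2, 1.92 for Rpp14 and 1.77 for Rgs5. Over the 902 genes with at least 2 tested probe sets the median gap was 0.22 and the 90th percentile 0.59, and 22 genes (2.44%) had a gap over 1 and 6 (0.665%) a gap over 2. Pdxdc1 ranked 1, Ctsc 3, Prdx2 5, Rpp14 8 and Rgs5 10. Signs differed between tested probe sets in 3 of the 5 genes (Pdxdc1, Ctsc and Rpp14) and in 412 of the 902 (45.7%). Without the sample 1 C3H/HeJBir Il10-null pool the count among the 5 genes was 1, Pdxdc1, since the bright probe sets of Ctsc and Rpp14 then lay below 0. Probe sets past the threshold in opposite directions were found in 1 of the 902 genes (0.111%), which was Pdxdc1. In 17 of the 902 (1.88%), including Ctsc, Prdx2, Rpp14 and Rgs5, some but not all tested probe sets were past the threshold.

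**Figure D3:**
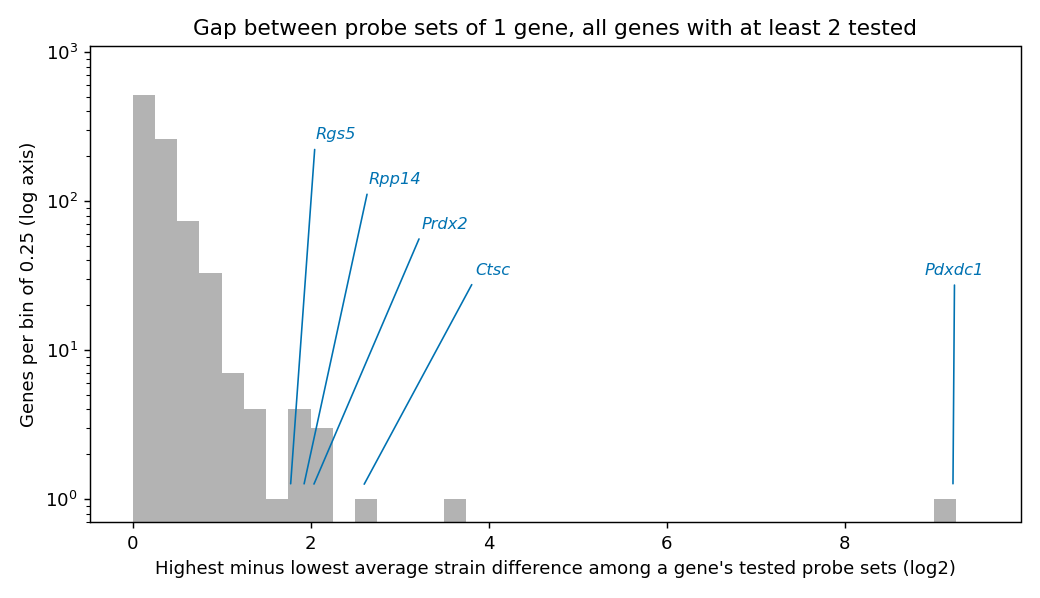
Histogram of the gap (log2) between the highest and the lowest average strain difference among the tested probe sets of a gene, for 902 genes, with a log axis for the number of genes. Lines mark the 5 genes described here. Pdxdc1 lies alone at 9.22, and the other 4 lie between 1.77 and 2.58.

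The other genes among the 10 with the largest gaps were Slpi, H2-D1, Ighg3, Ighm and Noct. Slpi, a secreted inhibitor of leukocyte proteases, had a gap of 3.67, and its probe set 92858_at averaged 2291 in C3H/HeJBir and 142 in C57BL/6J, while 162329_r_at averaged 54.7 in C3H/HeJBir and 45.2 in C57BL/6J. H2-D1, an antigen-presenting molecule of MHC class I, had a gap of 2.12, with 958 in C3H/HeJBir against 244 in C57BL/6J for 97541_f_at and 3330.1 against 4011 for 97540_f_at. The immunoglobulin heavy chain genes Ighg3 and Ighm had gaps of 2.02 and 1.99, and Noct, a phosphatase with a daily rhythm, had 1.84. These genes were ranked by the same strain differences, so their values are a description too.

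For the probe set of each gene with the largest strain difference, the genes most like it over the 8 arrays were found by Pearson's correlation of log2 values. All 8 arrays fall into 2 strains, so these coefficients largely restate a strain difference. For 97713_at of Pdxdc1 they were Gm15772 (0.99), Slpi (0.98) and Glo1 (0.98). For 101020_at of Ctsc the most similar probe set was 160163_at of Pdxdc1 (0.98), followed by Usp38 and Mtmr7 (0.98 each). For 103294_at of Rgs5 they were Mprip, St3gal4 and B4galnt2 (0.99 each), for 99608_at of Prdx2 4833420G17Rik (0.99), Anxa4 (0.97) and Ybx3 (0.96), and for 160474_at of Rpp14 Sbno1 (0.99), Mrpl35 and Cd99 (0.97 each).

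The loss of Il10 was a comparison that the choice of genes did not use, although it shares pools with the strain differences. In both strains the sample 1 pools of Il10-null and wild type were hybridised on different days. All sample 2 pools shared 1 day. In sample 1 an effect of the day therefore cannot be told apart from an Il10 effect. None of the 11 tested probe sets passed in the Il10 comparison. Some of them reached the filter through 1 strain and lay near the floor in the other, where the pseudocount compresses an Il10 effect. Such values were 7.38 to 23.3 for 97713_at in C57BL/6J. In C3H/HeJBir they were 3.57 to 17.3 for 101020_at and 6.63 to 27.3 for 160474_at. For these the lack of a pass says little in that strain. For the average Il10 effect limma called 0 of 11 members at an adjusted p under 0.05 (0% of all tested probe sets), and 0 of 11 at an unadjusted p under 0.05 (3.09% of all). In C3H/HeJBir 0 of 11 passed (0.0134% of all), with 1 at an unadjusted p under 0.05 (2.83% of all), and in C57BL/6J 0 of 11 passed (0% of all), with 0 at an unadjusted p under 0.05 (1.58% of all). Simulated data for the average effect held 7453 probe sets, 100 given a change of 1 (log2) and 100 given a change of 2. The fit found 50% of those given 1 and 95% of those given 2. The residuals were drawn independently, whereas real pools of the same sample number deviated together (correlations of 0.198 to 0.332). The rates therefore need not hold for these arrays.

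The average Il10 effect with the smallest p belonged to 96180_at of Rgs5, at -0.51 ± 0.22 (limma adjusted p = 1.00), where the Il10-null pool was lower than the wild-type pool of its number in 3 of 4 pairs. The brighter probe set of Rgs5, 103294_at, gave -0.09 ± 0.20. The probe set 99608_at of Prdx2 had an Il10 effect of 0.85 ± 0.34 in C3H/HeJBir (unadjusted p = 0.0354, limma adjusted p = 0.999), and of -0.19 ± 0.34 in C57BL/6J. Between the C3H/HeJBir pools of sample 1, hybridised on different days, it was 1.60, and between those of sample 2, hybridised on the same day, 0.11. The remaining average Il10 effects of tested probe sets ran from -0.01 to 0.36.

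**Figure D4:**
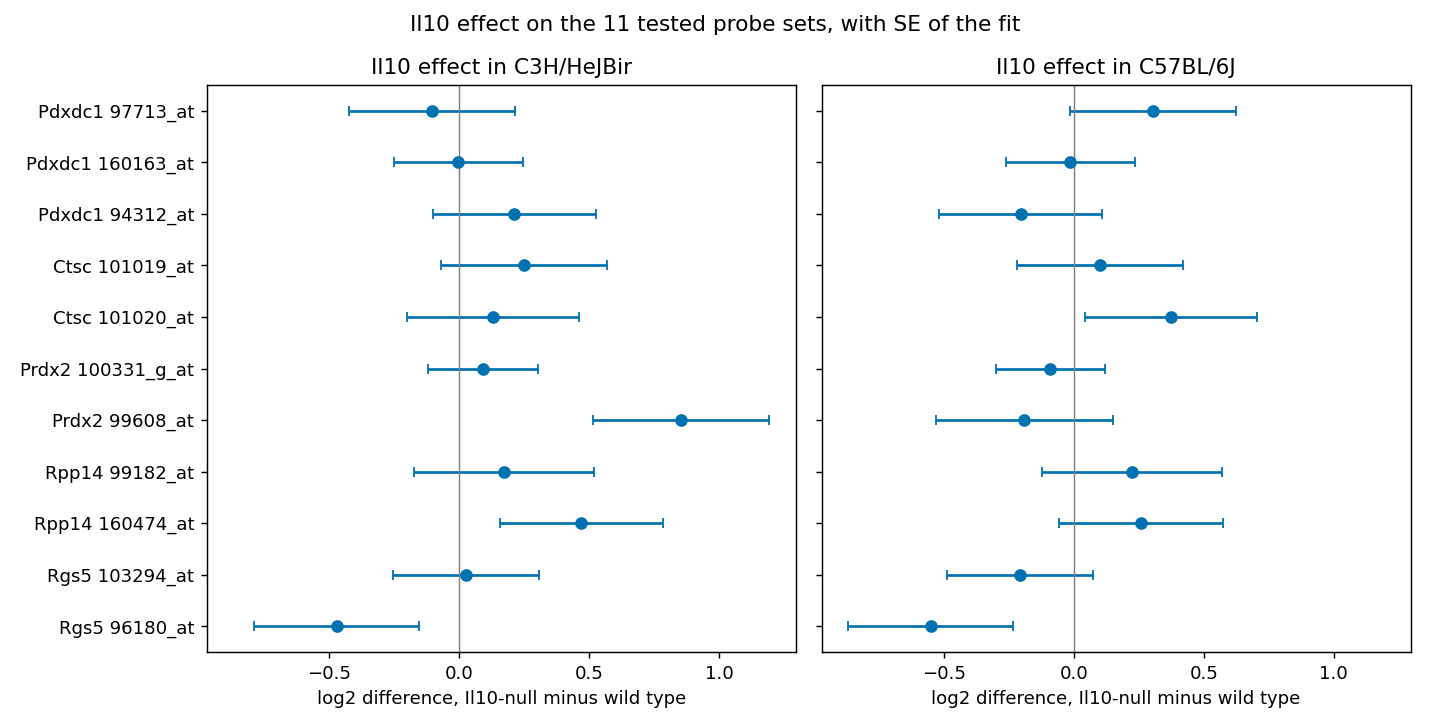
Il10 effect (log2, Il10-null minus wild type) on the 11 tested probe sets in C3H/HeJBir, left, and C57BL/6J, right. Points are the estimates of the limma fit and bars their SE. Estimates lie between -0.55 and 0.85.

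The probe sets of a gene were also tested against each other for the Il10 effect, as the log2 ratio of a dimmer to the brightest probe set in the same array. For the average Il10 effect 0 of 6 ratios of the 5 genes passed at a limma adjusted p under 0.05, as did 0% of the 1040 ratios of all genes, and 0 of 6 had an unadjusted p under 0.05 (1.83% of all). The differences were -0.11 and -0.10 for Pdxdc1, 0.08 for Ctsc, 0.33 for Prdx2, 0.17 for Rpp14 and -0.42 for Rgs5. In the average strain difference, which chose the genes, the same ratios differed by -9.22 and -8.85 for Pdxdc1, -2.58 for Ctsc, -2.02 for Prdx2, -1.92 for Rpp14 and 1.77 for Rgs5.

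Relatives of the 5 genes were read from 6 lists of gene families, by the brightest probe set of each gene and with the 5 genes left out. In these lists 0 of 52 tested genes passed in the average strain difference (limma), with 4 at an unadjusted p under 0.05, where 1.11% of all tested probe sets passed and 8.43% had such a p. In the average Il10 effect 0 of 52 passed, with 2 at an unadjusted p under 0.05, where 0% of all passed and 3.09% had such a p. The median strain difference was -0.03 over 19 genes of peroxiredoxins, thioredoxin and related antioxidant enzymes, against -0.02 over all tested probe sets. Gpx3, a secreted glutathione peroxidase, averaged 303 ± 54.2 in C3H/HeJBir and 191 ± 31.0 in C57BL/6J (SD, n = 4 pools each; limma adjusted p = 0.333). Over 13 lysosomal cathepsins and their inhibitors the median was 0.10, and Ctsh, an aminopeptidase of lysosomes, averaged 152 ± 41.0 in C3H/HeJBir and 250.2 ± 22.5 in C57BL/6J (limma adjusted p = 0.286).

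The granule proteases that cathepsin C activates had a median strain difference of -0.08 over 4 tested genes of 18 on the array. The median was 0.17 among Il10-null pools, with 4 of 4 genes higher in C3H/HeJBir, and -0.45 among wild-type pools, with 0 of 4 higher, and 0 of 4 passed in either. The difference between these medians was not tested. The 18 genes summed to 593 in C3H/HeJBir Il10-null sample 1 and to 293 to 452 in the other pools of both strains. Gzmb, a protease of cytotoxic lymphocytes, averaged 39.96 ± 25.2 in C3H/HeJBir and 44.9 ± 10.5 in C57BL/6J. The median was -0.06 over 3 subunits of RNase P and RNase MRP, -0.11 over 7 regulators of G protein signalling and 0.15 over 6 enzymes of vitamin B6 and decarboxylation. Rgs11 averaged 19.0 ± 4.04 in C3H/HeJBir and 57.9 ± 35.0 in C57BL/6J, which is -1.05 ± 0.35 on the log2 scale (limma adjusted p = 0.365).

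Markers of 10 cell types or tissues were read in the same way. Of 57 tested markers 1 passed in the average strain difference (1.11% of all tested probe sets passed), with 5 at an unadjusted p under 0.05 (8.43% of all). It was Mmp7, the matrilysin of Paneth cells, at 208 ± 80.7 in C3H/HeJBir and 9.34 ± 3.39 in C57BL/6J (log2 3.36 ± 0.20, limma adjusted p = 0.000229). The other tested genes of its list of small intestine and Paneth cell markers did not pass. Their strain differences were -0.35 for Fabp2, 0.29 for Apob, 0.16 for Fabp6 and 0.12 for Slc5a1, and no defensin of the list was tested. The 7 pericyte markers on the array summed to 425 to 562 in C3H/HeJBir pools and 415 to 608 in C57BL/6J pools, beside the lower 103294_at of Rgs5 in C3H/HeJBir. The 6 red blood cell markers summed to 668 to 1128 in C3H/HeJBir and 540.5 to 841 in C57BL/6J, beside the lower 99608_at of Prdx2. The 14 neutrophil and macrophage markers summed to 1436 to 4024 in C3H/HeJBir and 1110.1 to 1674 in C57BL/6J, beside the lower dim probe sets of Ctsc. Of these 14 markers 6 passed the filter. The brightest of them, Ly6g, averaged 1282 in C3H/HeJBir and 744 in C57BL/6J, so the sum leans on 1 gene. The 4024 was that of C3H/HeJBir Il10-null sample 1, and the other C3H/HeJBir pools had 1741 (Il10-null), 1436 and 1960 (wild type). These sums overlapped between the strains, and their part in the strain differences was not tested.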

How the data were processed

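RNA of pooled mouse colon was measured on 8 MG_U74Av2 arrays, the chip type being given per the file headers. The deposited intensity table holds linear values of 0.03 to 12860, 1 for each probe set and array. Its 2% trimmed means lay between 147.8 and 149.1, close together, so the authors' values appear to have been scaled to a common level. The sources used here do not give the algorithm that summarised the probes, its scaling target, any background correction or detection calls. The experiment records gave 3 hybridisation days, per the file headers.

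Groups were read from the sample titles. The 7453 of 12422 probe sets whose mean reached 37.0, which is the 40th percentile, were tested. From the deposited values, log2 was taken after adding 11.07 (the 20th percentile), and fitted with limma 3.58.1 in R 4.3.3 (4 group means, lmFit, eBayes, two-sided, Benjamini-Hochberg over all tested probe sets). Probe sets carried 1 gene symbol (10833), several (396) or none (1193) in GEO's platform annotation, and chromosomes came from the RefSeq table of GRCm38.p6. The fit was tested on simulated data.

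The 5 genes, the gene lists and the tests were chosen with earlier results of these data known. All probe sets of the 5 genes were named, with the 10 genes of largest gap, the 3 most similar genes for each, and list members with the largest strain difference. Pools with the same sample number deviated together (correlations of 0.198 to 0.332 over the pairs of groups, each above 0.1), and an alternative fit took the number as a block. The labels call the pools of a group independent, and p-values measure the spread between pools. In every group, however, the pools differed in their Xist reading and in their hybridisation day. The spread behind the p-values therefore includes any effect of the mix of sexes and of the day. The size of these effects was not tested. Alternatives changed the pseudocount, filter, normalization, moderation, samples and blocks, and left out each pool.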

Additional observations from a re-analysis of the deposited data

Results flagged for a closer look

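In 2 of the 13 probe sets the Il10-null pools lay on opposite sides of wild type in the strains, with every pool of a group on the same side. The share of all probe sets with this pattern was not counted, so nothing is read from the number of 2. The probe set 161251_f_at of Ctsc was lower in both C3H/HeJBir Il10-null pools than in both C3H/HeJBir wild-type pools, and higher in both C57BL/6J Il10-null pools than in both C57BL/6J wild-type pools, a difference of Il10 effects of -1.14 (log2). This probe set did not pass the filter, and its C3H/HeJBir values all lay at or below the 19.2 percentile of their arrays. The probe set 99608_at of Prdx2 went the other way, higher in the Il10-null pools of C3H/HeJBir and lower in those of C57BL/6J, by 1.04. Its nearest Il10-null and wild-type pools were close, at 30.8 against 27.9 in C3H/HeJBir and 155 against 156 in C57BL/6J. The differences of Il10 effects were not tested, because each is also a difference between the strain differences that chose the genes. The bright probe sets 101019_at of Ctsc and 100331_g_at of Prdx2 gave 0.15 and 0.18 for the same quantity.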

How the results depend on the processing

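The number of member probe sets past the threshold in the average strain difference, 7 of 11 and a description like the other strain counts, stayed within 1.5 times under each alternative run, and ran from 6 to 7 without a pool. Among Il10-null pools the count of 5 was 3 with a pseudocount of 2.76, 2 without a filter, 1 with a block on the hybridisation day and 2 in a fit of the compared groups, and ran from 1 to 4 without a pool. It was 3 without the sample 1 C3H/HeJBir Il10-null pool, 2 and 1 without the sample 1 and sample 2 C57BL/6J Il10-null pool, and 3 without either C57BL/6J wild-type pool. Among wild-type pools the count of 6 ran from 1 to 6 without a pool: it was 3 and 2 without the sample 1 and the sample 2 C3H/HeJBir wild-type pool, and 1 without either C57BL/6J wild-type pool, where 1 pool of that group is assumed to vary like the others. The cause was not tested. With the replicate block, which used the sample number, the counts were 7 for the average, 5 among Il10-null pools and 6 among wild-type pools, equal to those without it, and those for the Il10 effects were 0. The 4 results on the Il10 effect, including that on probe set ratios, gave 0 members in 70 of 70 alternative fits, with smallest limma adjusted p values from 0.289 to 1.

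Over all tested probe sets the counts past the threshold ran, over the alternatives, from 39 to 114 for the average strain difference (83 in the report's fit), 4 to 45 among Il10-null pools (22) and 2 to 53 among wild-type pools (30), and from 0 to 11 for the average Il10 effect (0), 0 to 7 in C3H/HeJBir (1) and 0 to 1 in C57BL/6J (0). The number of arrays limits the precision of all these values.

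The size of strain differences depended on the pseudocount, as its construction implies for dim values. Between pseudocounts of 2.76 and 56.7 the average strain difference moved between 6.92 and 4.95 for 97713_at of Pdxdc1, -3.21 and -1.23 for 101020_at of Ctsc, and -2.12 and -0.83 for 160474_at of Rpp14. No strain difference past the threshold turned its sign.

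Average Il10 effects near 0 turned their sign under some alternatives. For 100331_g_at of Prdx2 the value was -0.00039 after quantile normalization and -0.0064 after scaling to a common median, for 94312_at of Pdxdc1 -0.0013 after that scaling and -0.021 with a pseudocount of 56.7, and with a block on the day 0.13 for 103294_at of Rgs5, 0.0080 for 160163_at of Pdxdc1 and -0.046 for 99182_at of Rpp14. Without a pool the values ran from -0.030 to 0.031 for 100331_g_at, -0.12 to 0.10 for 160163_at, -0.18 to 0.19 for 94312_at, -0.049 to 0.40 for 101019_at, -0.098 to 0.30 for 97713_at, -0.27 to 0.091 for 103294_at and -0.085 to 0.48 for 99182_at.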

Other observations

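The genes beside the 5 were read after the values of the 5 had been seen. The 3 nearest genes with a tested probe set on each side of a gene, in the order of the RefSeq table, gave 27 genes. For Rpp14 such genes were found at higher coordinates only. In the average strain difference 0 of these 27 passed (limma; 2 at an unadjusted p under 0.05, where 1.11% of all tested probe sets passed and 8.43% had such a p), and their differences ran from -0.75 to 0.90. The smallest adjusted p, 0.0809, belonged to Pxk, a sorting nexin with a kinase-like domain beside Rpp14, which averaged 179 in C3H/HeJBir and 314 in C57BL/6J (log2 -0.75 ± 0.15). Beside Pdxdc1, Parn, a ribonuclease that shortens poly(A) tails, averaged 113 in C3H/HeJBir and 96.5 in C57BL/6J, and Ntan1, an amidase of the N-degron pathway, 61.2 in C3H/HeJBir and 45.8 in C57BL/6J. Beside Rgs5, Uap1, an enzyme that makes UDP-N-acetylglucosamine, averaged 129.8 in C3H/HeJBir and 59.3 in C57BL/6J (log2 0.90 ± 0.32, limma adjusted p = 0.416).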
